A study of Homo sapiens with 10 samples.

Results

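Collagen genes were described in 2 human cell lines treated with small molecules. The members were the protein-coding genes of the count table whose symbol reads COL, a number, A and a number, which gave 44 of 60651 genes. They comprised 11 genes of fibrillar collagens, 8 of basement membrane collagens and 25 of other types. RNA was sequenced from 10 libraries in 5 groups of 2. HT29 is an established colorectal cancer line, and its cells received 10 µM of VXN or the solvent DMSO. The line t-hESC is labelled as pluripotent stem cells that were transformed, and its cells received 10 µM of VXN, 1 µM of BIX or DMSO. The labels give 48 hours for every sample. Their treatment field names DMSO throughout, so the compounds and doses were taken from the sample titles. VXN is a code name that is not expanded, and BIX is a name used for inhibitors of the G9a family of histone methyltransferases. Each line was a single cell line, and the series describes the libraries of a group as biological replicates. The p-values below therefore cover only the spread between libraries of the same group. That spread was estimated over all 5 groups and drawn toward the spread shared by the genes tested.

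Depth ran from 13137026 to 24492838 gene counts per library. Levels are given as CPM, counts scaled to library size with TMM factors, and a count of 0 in a library allows up to 3 counts, or 0.123 to 0.22 CPM, for counting error only. The 10 pluripotency markers summed to 4.266 to 11.95 CPM in the HT29 libraries and 4561 to 5028 CPM in the t-hESC libraries. The 10 colon epithelial markers summed to 1166 to 1515 CPM in HT29 and 6.765 to 11.44 CPM in t-hESC. Markers of pluripotent cells and of colon epithelium therefore followed the labelled lines, although CDX1, CDX2, CDH17, GPA33 and FABP1 were each low in HT29, with means of 0.226 to 1.56 CPM over its 4 libraries. CPM were not divided by transcript length, so levels are compared here for the same gene between groups and not between genes.

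Collagens are secreted proteins whose chains wind round each other in a rope-like helix. Fibrillar collagens, such as types I, II, III and V, assemble into the fibrils of bone, skin, tendon and cartilage, and type IV collagen forms the sheet-like network of basement membranes on which epithelia rest. The remaining types include FACIT collagens that sit on the surface of fibrils, type VI beaded filaments, type VII anchoring fibrils and membrane-spanning collagens. Collagen chains are hydroxylated and folded in the endoplasmic reticulum, trimmed outside the cell, cross-linked, bound by integrin and DDR receptors and cleaved by matrix metalloproteinases. In the gut wall most fibrillar collagen is made by fibroblasts, while epithelial cells make part of the basement membrane.

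Promoter sequences are shown for 3 genes whose changes in HT29 are described below. RefSeq promoter windows of the GRCh38.p14 assembly, which run from 250 bases before to 50 bases after a gene's start, were matched by symbol for 32 of the 44 members. COL16A1 and COL7A1 were chosen because each rose in HT29 with little spread, and the COL4A2 window because it also holds the start of COL4A1, which is read in the opposite direction from a start 127 bases away. Capitals mark GC boxes (GGGCGG on either strand) and, in the COL4A2 window, also the CCAAT box (CCAAT on either strand). The windows lie at chr1:31703968-31704267 (minus strand), chr3:48595280-48595579 (minus strand) and chr13:110307034-110307333 (plus strand).
COL16A1: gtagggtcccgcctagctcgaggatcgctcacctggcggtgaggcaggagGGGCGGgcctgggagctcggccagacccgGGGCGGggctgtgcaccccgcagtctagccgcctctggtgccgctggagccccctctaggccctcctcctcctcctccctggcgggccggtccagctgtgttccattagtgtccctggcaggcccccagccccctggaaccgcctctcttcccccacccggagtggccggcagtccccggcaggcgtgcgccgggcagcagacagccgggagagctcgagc
COL7A1: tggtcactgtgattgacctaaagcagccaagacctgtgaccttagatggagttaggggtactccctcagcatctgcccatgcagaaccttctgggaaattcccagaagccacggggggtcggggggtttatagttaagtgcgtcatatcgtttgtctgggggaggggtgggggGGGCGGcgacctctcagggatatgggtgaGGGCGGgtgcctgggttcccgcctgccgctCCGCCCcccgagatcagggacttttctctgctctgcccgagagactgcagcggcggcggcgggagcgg
COL4A2: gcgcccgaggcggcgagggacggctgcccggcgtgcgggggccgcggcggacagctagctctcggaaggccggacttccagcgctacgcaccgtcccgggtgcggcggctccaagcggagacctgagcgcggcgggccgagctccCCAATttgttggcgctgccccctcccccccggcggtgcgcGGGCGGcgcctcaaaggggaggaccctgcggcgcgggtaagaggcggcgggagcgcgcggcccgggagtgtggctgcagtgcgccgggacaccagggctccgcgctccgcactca

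The 32 matched genes had 44 windows, since some have several starts. The GC box occurred in 24 of these 44 windows, from 21 genes, where 45.0% of all 35116 windows of this length hold it. The CCAAT box occurred in 14 of the 44 windows, from 12 genes, against 34.6% of all windows. A TATAAA was found in 8 of the 44 windows, from 7 genes, against 11.5% of all windows, and the AP-1 motif TGANTCA in 1 window, of COL10A1, against 7.71% of all windows. All motifs were searched on both strands, and a match describes these letters only. COL1A1, COL1A2, COL2A1, COL3A1, COL5A2, COL14A1, COL20A1, COL22A1, COL9A3, COL6A1, COL6A5 and COL8A1 had no entry.

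Collagen RNA was far lower in HT29 than in t-hESC. Summed over the 44 genes, it came to 424.8 ± 0.99 CPM in HT29 VXN and 214.2 ± 8.7 CPM in HT29 DMSO, with 1746 ± 48.8 CPM in t-hESC VXN, 1991 ± 96.2 CPM in t-hESC BIX and 1776 ± 1.41 CPM in t-hESC DMSO (SD, n = 2 each). A mean of at least 1 CPM was reached by 16 genes in HT29 VXN, 7 in HT29 DMSO, 32 in t-hESC VXN, 34 in t-hESC BIX and 32 in t-hESC DMSO. Fibrillar collagens summed to 31.75 and 40.76 CPM in HT29 VXN, 40.99 and 43.72 CPM in HT29 DMSO, 314.2 and 326.1 CPM in t-hESC VXN, 370.6 and 398.7 CPM in t-hESC BIX, and 287.7 with 293.0 CPM in t-hESC DMSO. Basement membrane collagens summed to 71.0 and 72.11 CPM in HT29 VXN, 40.7 and 41.21 CPM in HT29 DMSO, 739.5 and 789.6 CPM in t-hESC VXN, 876.7 and 923.2 CPM in t-hESC BIX, with 839.6 and 842.6 CPM in t-hESC DMSO. The other types summed to 313.8 and 320.3 CPM in HT29 VXN, 126.4 and 135.5 CPM in HT29 DMSO, 657.3 and 663.9 CPM in t-hESC VXN, 675.3 and 737.4 CPM in t-hESC BIX, with 644.2 and 644.8 CPM in t-hESC DMSO. In HT29 both VXN libraries lay above both DMSO libraries for the basement membrane and other types, and both lay below them for the fibrillar collagens. The fibrillar sum followed COL27A1, with means of 25.36 CPM in HT29 VXN and 38.78 CPM in HT29 DMSO. In the tests below 5 other fibrillar genes rose. The sum of the other types followed COL16A1, with means of 169.2 CPM in HT29 VXN and 19.18 CPM in HT29 DMSO. A sum over RNA from many cells cannot tell fewer expressing cells from less RNA per cell.

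**Figure D1:**
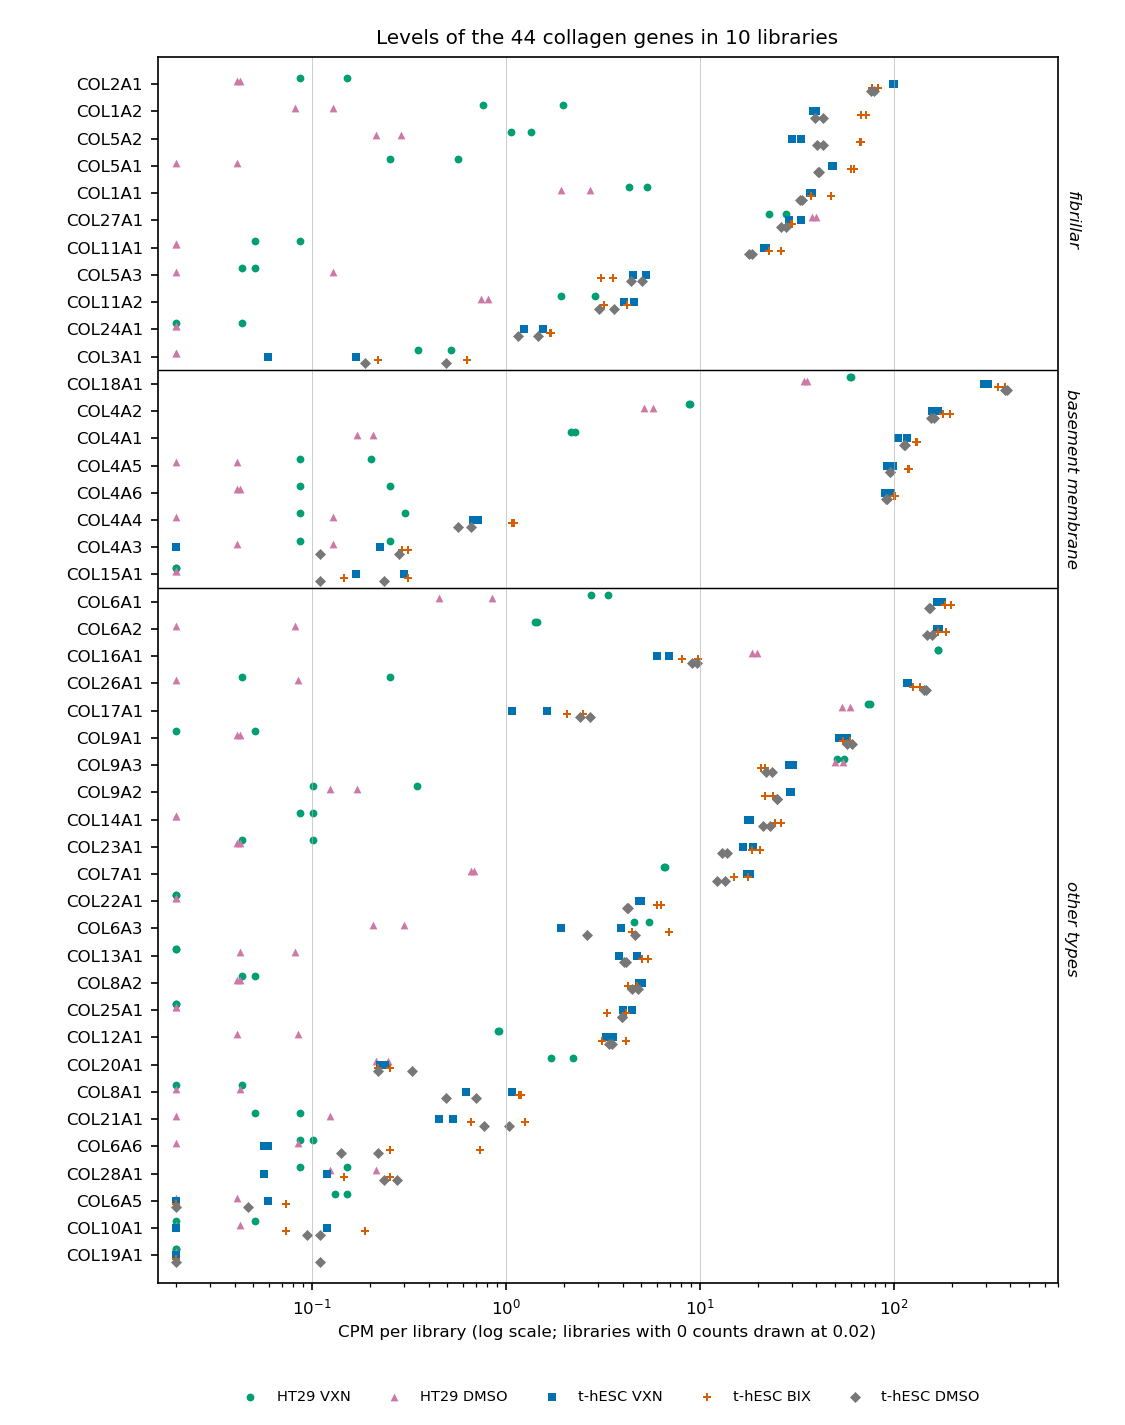
Level of each of the 44 collagen genes in every library, in CPM on a log axis, with genes in rows grouped by class and 1 point per library (libraries with 0 counts are drawn at 0.02). Most HT29 points lie far to the left of the t-hESC points, while COL16A1 and COL17A1 lie to the right.

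Tests were made across all genes with edgeR's quasi-likelihood test, and a gene is called where the Benjamini-Hochberg adjusted p over the 22495 genes that passed a filter on low counts is under 0.05. Of the 44 members 36 passed that filter (10 fibrillar, 6 basement membrane and 20 others). COL3A1, COL15A1, COL4A3, COL19A1, COL6A5, COL6A6, COL10A1 and COL28A1 did not, and the highest group mean of each was 0.0549 to 0.493 CPM. COL3A1, the chain of type III collagen, had 0.524 and 0.354 CPM in HT29 VXN, 0 in both HT29 DMSO libraries, 0.0597 and 0.169 CPM in t-hESC VXN, 0.63 and 0.22 CPM in t-hESC BIX, with 0.494 and 0.188 CPM in t-hESC DMSO. COL4A3, a type IV chain of kidney basement membrane, had 0.0874 and 0.253 CPM in HT29 VXN, 0.0412 and 0.128 CPM in HT29 DMSO, 0 and 0.226 CPM in t-hESC VXN, 0.315 and 0.293 CPM in t-hESC BIX, with 0.11 and 0.282 CPM in t-hESC DMSO. Both genes lay near the level of a few counts in every group. The t-hESC BIX libraries of COL4A3 lay above those of t-hESC VXN and t-hESC DMSO, and neither gene was tested.

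Between the lines under DMSO, 31 collagen genes were lower in HT29, 4 were higher and 1, COL20A1, was not called. Of all genes tested 84.4% were called in this comparison, 38.9% higher and 45.6% lower. The median log2 fold change of the 36 members was -6.96, against -0.12 over all genes tested, and -6.03 with the 5 members at 0 counts in HT29 DMSO set at their bound. No called member overlapped between the lines, but the test itself selects genes that differ, and this share was not counted over all genes. The 4 that were higher in HT29 were COL17A1, the hemidesmosome collagen of epithelial cells, COL9A3 and COL16A1, both FACIT collagens, and COL27A1, a fibrillar collagen of cartilage. COL17A1 had 59.53 and 53.92 CPM in HT29 DMSO, against 2.416 and 2.729 CPM in t-hESC DMSO, a log2 fold change of 4.45 ± 0.10 (SE; adjusted p = 3.25e-47). COL16A1 had 18.65 and 19.71 CPM in HT29 DMSO, against 9.662 and 9.081 CPM in t-hESC DMSO (log2 fold change 1.03 ± 0.09, adjusted p = 1.18e-16). COL9A3 had 55.04 and 49.82 CPM in HT29 DMSO, against 23.55 and 21.88 CPM in t-hESC DMSO, and COL27A1 had 39.81 and 37.75 CPM, against 27.78 and 26.25 CPM. The log2 fold changes of these 2 genes were 1.21 ± 0.06 and 0.52 ± 0.07.

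Several genes that t-hESC expressed strongly were at or near 0 counts in HT29. COL11A1 and COL14A1 had 0 counts in both HT29 DMSO libraries, against 720 and 867 counts summed over the t-hESC DMSO libraries, which puts them at least 290.2-fold and 349.5-fold lower (floor of 3 counts over the group). COL4A5, a type IV chain, had 0.0412 and 0 CPM in HT29 DMSO, against 96.19 and 96.08 CPM in t-hESC DMSO. COL6A2, a chain of type VI filaments, had 0.0823 and 0 CPM, against 148.5 and 157 CPM, and COL26A1 had 0 and 0.0853 CPM, against 146.4 and 143.8 CPM. HT29 DMSO thus held at most 3 counts per library of each of these 5 genes. COL2A1, the main cartilage collagen, had 0.0412 and 0.0427 CPM in HT29 DMSO, against 76.81 and 79.61 CPM in t-hESC DMSO (log2 fold change -10.66 ± 0.17, adjusted p = 2.60e-56). COL11A2 was the lower gene with the smallest difference, at 0.741 and 0.810 CPM in HT29 DMSO, against 3.623 and 3.011 CPM in t-hESC DMSO (log2 fold change -2.08 ± 0.26).

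Under VXN the lines differed again at 35 of the 36 members, 31 lower and 4 higher in HT29, where 86.4% of all genes tested were called, 40.9% higher and 45.5% lower. The higher genes were COL17A1 (log2 fold change 5.76 ± 0.11), COL16A1 (4.71 ± 0.07), COL20A1 (3.04 ± 0.43) and COL9A3 (0.85 ± 0.06), so COL20A1 took the place of COL27A1. COL27A1 had 27.87 and 22.84 CPM in HT29 VXN, against 28.85 and 33.32 CPM in t-hESC VXN, and was lower by a log2 fold change of -0.29 ± 0.08 (adjusted p = 4.24e-04). That call was lost without HT29 VXN replicate 2 (adjusted p = 0.0968) and without t-hESC VXN replicate 2 (adjusted p = 0.0574). COL6A3 was not called, with 5.461 and 4.558 CPM in HT29 VXN and 3.943 and 1.917 CPM in t-hESC VXN (log2 fold change 0.79 ± 0.34, adjusted p = 0.0521). It was called higher in HT29 in several other fits, with the replicate block (adjusted p = 0.0404), a minimum count of 50 (0.0445), no count filter (4.57e-05), only the groups compared (0.00184) and without any 1 of the t-hESC DMSO or BIX libraries, or without t-hESC VXN replicate 1 (from 5.58e-05 to 0.0207). COL9A1, COL2A1 and COL26A1 had log2 fold changes of -10.84, -9.66 and -9.65. HT29 VXN had 0 counts of COL13A1 and COL22A1, which puts them at least 61.0-fold and 69.7-fold below t-hESC VXN.

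VXN in HT29 raised some of the fibrillar, basement membrane and FACIT collagen genes and all 3 tested type VI genes. In this comparison 17 members were higher, 1 was lower and 18 were not called, where 60% of all genes tested were called, 33% higher and 26.9% lower. The median log2 fold change of the members was 1.55, against 0.05 over all genes tested, and 0.91 with members at 0 counts in a group set at their bound or, with no more than 3 counts in the other group, at 0. By class, 5 fibrillar genes rose and 1 fell, 3 basement membrane genes rose, and 9 of the other types rose. Among the other types, 4 of 9 tested FACIT genes rose, all 3 tested type VI genes, COL7A1 and 1 of 4 transmembrane genes, and neither of the type VIII genes was called. The libraries of HT29 VXN did not overlap those of HT29 DMSO at any of the 18 called members. The test selects genes that differ, and the share without overlap was not counted over all genes.

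COL16A1 was the member with the most counts behind its change. It had 168.6 and 169.8 CPM (3858 and 3352 counts) in HT29 VXN, against 18.65 and 19.71 CPM (453 and 462 counts) in HT29 DMSO, a log2 fold change of 3.14 ± 0.053 (adjusted p = 1.29e-53). Both VXN libraries lay far above both DMSO libraries. The kit does not mark strand, and PEF1-AS1, a gene that overlaps COL16A1, had 178 and 127 counts in HT29 VXN, against 12 and 9 counts in HT29 DMSO, so reads of this pair cannot be told apart. COL16A1 lies at chr1:31652263-31704017. COL7A1, the collagen of anchoring fibrils below epithelia, had 6.597 and 6.584 CPM in HT29 VXN, against 0.659 and 0.682 CPM in HT29 DMSO (log2 fold change 3.28 ± 0.21, adjusted p = 1.90e-22). COL20A1, a FACIT collagen, had 1.704 and 2.228 CPM in HT29 VXN, against 0.247 and 0.213 CPM in HT29 DMSO (3.05 ± 0.39, adjusted p = 2.43e-10). COL17A1 had 73.4 and 75.46 CPM in HT29 VXN, against 59.53 and 53.92 CPM in HT29 DMSO, a log2 fold change of 0.39 ± 0.05 (adjusted p = 7.31e-10). COL9A3, another collagen that HT29 held at a level above that of t-hESC, had 51.33 and 55.45 CPM in HT29 VXN and 55.04 and 49.82 CPM in HT29 DMSO, and was not called (log2 fold change 0.02 ± 0.05, adjusted p = 0.759).

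All 3 tested chains of type VI collagen rose in HT29. COL6A3 had 5.461 and 4.558 CPM in HT29 VXN, against 0.206 and 0.299 CPM in HT29 DMSO (log2 fold change 4.29 ± 0.54, adjusted p = 3.95e-05). COL6A1 had 3.364 and 2.735 CPM in HT29 VXN, against 0.453 and 0.853 CPM in HT29 DMSO (2.23 ± 0.26, adjusted p = 2.60e-11). COL6A2 had 33 and 28 counts in HT29 VXN, against 2 and 0 counts in HT29 DMSO, a ratio of 34.1 with a 95% counting interval from 9.06 to 288. Both VXN libraries lay above both DMSO libraries, and the DMSO libraries held few counts, which leaves a wide interval. COL12A1, a FACIT collagen, had 21 and 18 counts in HT29 VXN, against 1 and 2 counts in HT29 DMSO (ratio 14.6, interval 4.63 to 73.6). COL14A1 had 2 counts in each HT29 VXN library and 0 in HT29 DMSO, at least 1.49-fold higher. Its call (adjusted p = 0.0251) was lost when any 1 HT29 library was left out (adjusted p from 0.0504 to 0.105) and with DESeq2 (0.0647).

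Among fibrillar collagens, COL1A2 and COL1A1 encode the chains of type I collagen. COL1A2 had 1.966 and 0.76 CPM (45 and 15 counts) in HT29 VXN, against 0.0823 and 0.128 CPM (2 and 3 counts) in HT29 DMSO, a log2 fold change of 3.67 ± 0.51 (adjusted p = 6.68e-09). COL1A1 had 5.33 and 4.305 CPM in HT29 VXN, against 2.717 and 1.92 CPM in HT29 DMSO (1.06 ± 0.19, adjusted p = 3.18e-06). The groups did not overlap for either chain, and COL1A2 differed more between the VXN libraries. COL5A2, a type V chain, had 1.354 and 1.063 CPM in HT29 VXN, against 0.288 and 0.213 CPM in HT29 DMSO (2.25 ± 0.39). COL5A1 had 13 and 5 counts in HT29 VXN, against 1 and 0 counts in HT29 DMSO (ratio 20.2, interval 3.18 to 840). COL11A2 had 2.883 and 1.924 CPM in HT29 VXN, against 0.741 and 0.810 CPM in HT29 DMSO (1.64 ± 0.27). COL27A1 was the member that fell, at 27.87 and 22.84 CPM in HT29 VXN, against 39.81 and 37.75 CPM in HT29 DMSO (log2 fold change -0.61 ± 0.07, adjusted p = 1.03e-11). COL2A1 had 2 and 3 counts in HT29 VXN and 1 count in each HT29 DMSO library and was not called. COL3A1, which was not tested, had 12 and 7 counts in HT29 VXN and 0 in HT29 DMSO, at least 7.09-fold higher against a floor of 3 counts over the group.

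Of the basement membrane collagens, COL18A1, whose C-terminal fragment is endostatin, had 59.55 and 60.01 CPM in HT29 VXN, against 35.69 and 34.51 CPM in HT29 DMSO (log2 fold change 0.77 ± 0.05, adjusted p = 3.62e-20). SLC19A1, a gene that overlaps COL18A1, had 30.41 and 31.75 CPM in HT29 VXN, against 40.22 and 39.79 CPM in HT29 DMSO. COL4A1 had 2.272 and 2.178 CPM in HT29 VXN, against 0.206 and 0.171 CPM in HT29 DMSO (3.52 ± 0.37, adjusted p = 4.15e-13), and COL4A2 had 8.825 and 8.913 CPM, against 5.187 and 5.716 CPM (0.70 ± 0.12, adjusted p = 7.26e-07). These 3 genes were higher in both VXN libraries than in both DMSO libraries. COL4A5 had 2 and 4 counts in HT29 VXN and 1 and 0 counts in HT29 DMSO (ratio 6.72, interval 0.815 to 309), COL4A6 had 2 and 5 counts and 1 count in each DMSO library (ratio 3.92, interval 0.746 to 38.7), and COL4A4 had 2 and 6 counts and 0 and 3 counts (ratio 2.99, interval 0.717 to 17.5). None of these 3 was called (adjusted p = 0.0561, 0.0944 and 0.168), but calls on so few counts turned with the fit. COL4A5 was called with a minimum count of 50 (adjusted p = 0.0476), without HT29 DMSO replicate 1 (0.0421) and without HT29 VXN replicate 1 (0.0375), COL4A6 without HT29 VXN replicate 1 (0.0419), and COL4A4 without HT29 DMSO replicate 2 (0.028).

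Because t-hESC held so much more collagen RNA, HT29 levels were set against what a trace of t-hESC RNA or reads in an HT29 library would give. For each of the 10 pluripotency markers the mean HT29 level was taken as a percentage of its mean over the 6 t-hESC libraries. In HT29 VXN this share had a median of 0.0986% and a highest value of 2.39%, for TDGF1 (240 counts). With TDGF1 and DPPA2 left out, a choice made after seeing the data, the shares ran from 0.0642 to 0.236%. In HT29 DMSO the median was 0.0367% and the highest was 2.49%, for DPPA2, which rests on 2 counts. The share was thus higher with VXN, and by library its median over 8 markers was 0.062 and 0.144% in HT29 VXN, against 0.0204 and 0.0221% in HT29 DMSO. The source of these marker counts was not tested.

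At the median share all 17 collagen rises in HT29 lay above the level that carry-over would give, and all 17 did so at the highest share without TDGF1 and DPPA2. At the TDGF1 share 12 of the 17 did. The 5 below it were COL4A1, COL6A1, COL6A2, COL5A1 and COL14A1, whose HT29 VXN levels were 1.87, 1.77, 0.859, 0.816 and 0.432% of their t-hESC means. COL1A2 and COL5A2 passed the TDGF1 share by factors of only 1.14 and 1.08. In HT29 VXN replicate 2 they had 0.76 and 1.063 CPM, below the 1.2 and 1.12 CPM which that share would give. COL16A1, COL17A1, COL20A1 and COL6A3 exceeded their t-hESC means, at 2050, 3590, 794 and 122%. Over the 44 members, 23 in HT29 VXN and 18 in HT29 DMSO exceeded the level given by the highest share, and 38 and 33 that given by the median share. Some of these rest on very few reads: in HT29 VXN, COL10A1 and COL8A1 had 1 count over both libraries and COL8A1 passed by a factor of 1.04, COL21A1 had 3, COL6A6 4, COL28A1 5, COL6A5 6, COL4A3 7 and COL4A4 8. In HT29 DMSO, COL10A1 and COL6A5 had 1 count, COL6A6 2, COL21A1 and COL4A4 3, COL4A3 4 and COL28A1 8. COL2A1, COL26A1, COL4A5 and COL4A6 stood at 0.139, 0.113, 0.14 and 0.179% of their t-hESC means in HT29 VXN, within the range of the 8 markers other than TDGF1 and DPPA2.

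Fibroblast markers were looked at beside the HT29 rises. The 10 fibroblast and mesenchyme markers summed to 2.097 to 2.532 CPM in HT29 VXN, against 1.536 to 1.688 CPM in HT29 DMSO. DCN, TWIST1, TWIST2 and POSTN had 0 counts in both HT29 VXN libraries, and LUM had 1.573 and 1.114 CPM in HT29 VXN, against 1.358 and 1.024 CPM in HT29 DMSO. PDGFRB and THY1 were the 2 of 6 tested markers that rose, where 33% of all genes tested were called higher. They had means of 0.192 and 0.489 CPM in HT29 VXN, against 0.0206 and 0.0838 CPM in HT29 DMSO. The t-hESC group means ran from 15.49 to 18.48 CPM for PDGFRB and from 586.8 to 856 CPM for THY1. These 2 markers were not set against carry-over, and their part in the collagen rises was not tested.

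In t-hESC, VXN moved collagens both ways, with COL2A1, COL9A3 and COL7A1 among the higher genes and COL18A1, COL17A1 and COL16A1 among the lower ones. It raised 10 members and lowered 6 of 36, with 20 not called, where 29% of all genes tested were called, 14.5% higher and 14.6% lower. The median log2 fold change of the members was 0.07, against 0.00 over all genes tested. Called log2 fold changes ran from -0.92 to 0.46. No called member overlapped between VXN and DMSO, but the test selects such genes, and this share again was not counted over all genes. With DESeq2 9 members were called, 4 higher and 5 lower, and COL9A2, COL23A1, COL11A1, COL5A1, COL6A2, COL27A1 and COL14A1 were those no longer called (adjusted p from 0.0687 to 0.266).

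COL2A1 rose to 99.28 and 100.5 CPM in t-hESC VXN, against 76.81 and 79.61 CPM in t-hESC DMSO, a log2 fold change of 0.35 ± 0.05 (adjusted p = 6.05e-09). COL7A1 had 18.22 and 17.59 CPM in t-hESC VXN, against 12.35 and 13.55 CPM in t-hESC DMSO (0.46 ± 0.09). COL23A1, a membrane-spanning collagen, had 18.76 and 16.69 CPM, against 13.89 and 13.08 CPM (0.39 ± 0.09), and had an adjusted p of 0.0923 with DESeq2. COL9A3, a chain of the cartilage collagen type IX, had 28.85 and 30.11 CPM in t-hESC VXN, against 23.55 and 21.88 CPM in t-hESC DMSO (0.38 ± 0.07). TCFL5, a gene that overlaps COL9A3, had 29.4 and 29.55 CPM in t-hESC VXN, against 36.99 and 33.97 CPM in t-hESC DMSO. COL9A2, COL11A1, COL5A1, COL27A1, COL6A1 and COL6A2 also rose, by 0.15 to 0.26 on the log2 scale. The 6 cartilage and notochord markers summed to 62.97 to 64.22 CPM in t-hESC VXN, against 51.33 to 52.21 CPM in t-hESC DMSO, and of the 5 that were tested 1 rose and 1 fell. The one that rose was SOX9, a transcription factor of cartilage, at 36.98 and 36.53 CPM in t-hESC VXN, against 14.55 and 15.06 CPM in t-hESC DMSO (log2 fold change 1.31 ± 0.07), and the one that fell was CNMD, at 11.71 and 10.77 CPM in t-hESC VXN, against 20.37 and 19.15 CPM in t-hESC DMSO (-0.81 ± 0.10). SOX9 was the tested marker whose rise carried the sum, and MATN3 was not called at means of 14.19 CPM with VXN and 16 CPM with DMSO. The part of these genes in the collagen changes was not tested.

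The 6 members that fell in t-hESC VXN were COL17A1, COL16A1, COL18A1, COL5A2, COL26A1 and COL14A1. COL17A1 had 1.075 and 1.635 CPM in t-hESC VXN, against 2.416 and 2.729 CPM in t-hESC DMSO (log2 fold change -0.92 ± 0.25, adjusted p = 0.00267), and the call was lost without VXN replicate 1 (adjusted p = 0.0986). COL16A1 had 6.929 and 6.032 CPM in t-hESC VXN, against 9.662 and 9.081 CPM in t-hESC DMSO (-0.53 ± 0.12). COL18A1 had 292.6 and 306.8 CPM in t-hESC VXN, against 382.8 and 376.7 CPM in t-hESC DMSO (-0.34 ± 0.03, adjusted p = 8.84e-13), while SLC19A1 had 71.65 and 73.65 CPM, against 89.89 and 93.2 CPM. COL5A2 had 29.93 and 33.26 CPM in t-hESC VXN, against 43.15 and 40.32 CPM in t-hESC DMSO (-0.40 ± 0.07, adjusted p = 1.33e-06). COL26A1 and COL14A1 fell by 0.30 and 0.29 on the log2 scale. Leaving out 1 library ended the calls of COL27A1 (without either DMSO library or VXN replicate 2), COL9A2 (either DMSO library), COL11A1 (DMSO replicate 2 or VXN replicate 2), COL6A2 and COL14A1 (DMSO replicate 1), with adjusted p from 0.0517 to 0.518. COL1A2, with 38.53 and 39.69 CPM in t-hESC VXN and 43.21 and 39.29 CPM in t-hESC DMSO, and COL1A1, with 37.1 and 37.94 CPM and 32.72 and 33.64 CPM, were not called (adjusted p = 0.481 and 0.0715). The type IV genes were not called either. COL4A1 had 105.3 and 117.5 CPM in t-hESC VXN and 113.6 and 114.4 CPM in t-hESC DMSO, and COL4A2 had 158.5 and 168.7 CPM and 155 and 161.6 CPM. COL4A5 had 92.2 and 98.7 CPM in t-hESC VXN and 96.19 and 96.08 CPM in t-hESC DMSO, COL4A6 had 89.9 and 96.8 CPM and 91.13 and 92.74 CPM, and COL4A4 had 0.717 and 0.677 CPM and 0.659 and 0.565 CPM. Of these 5 genes the VXN and DMSO libraries overlapped for all but COL4A4.

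BIX in t-hESC raised both chains of type I collagen, COL5A1 and COL5A2 of type V, and 4 of the 5 tested chains of type IV. It raised 15 members, lowered 2 and left 19 of 36 not called, where 23.1% of all genes tested were called, 10.9% higher and 12.2% lower. The median log2 fold change of the members was 0.20, against 0.00 over all genes tested. The called changes were small, from -0.52 to 0.76 on the log2 scale. None of the 17 overlapped between BIX and DMSO, but the test selects such genes, and this share was not counted over all genes. Members that were not called, such as COL24A1, COL27A1, COL9A2 and COL9A3, did not overlap either. By class, 5 fibrillar genes rose and 1 fell, 4 basement membrane genes rose, and of the other types 6 rose and 1 fell. COL6A3 was not called, but was called higher with no count filter (adjusted p = 0.00567) and with only the groups compared (0.038). With DESeq2 11 members were higher and 0 lower, as they also were without DMSO replicate 1. COL14A1, COL5A3 and COL4A6 lost their calls when any 1 of the 4 BIX and DMSO libraries was left out, COL22A1 did so without either DMSO library or BIX replicate 1, and COL7A1 and COL26A1 without DMSO replicate 1 and 1 BIX library each (adjusted p from 0.0529 to 0.414).

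COL1A2 had 71.69 and 67.59 CPM in t-hESC BIX, against 43.21 and 39.29 CPM in t-hESC DMSO, a log2 fold change of 0.76 ± 0.06 (adjusted p = 2.45e-14). COL5A2 had 67.98 and 67.08 CPM, against 43.15 and 40.32 CPM (0.70 ± 0.06, adjusted p = 4.02e-15), and COL5A1 had 62.81 and 60.19 CPM, against 41.01 and 40.93 CPM (0.59 ± 0.06, adjusted p = 3.33e-12). These 3 fibrillar genes had the smallest adjusted p of the members, and their BIX libraries all lay above their DMSO libraries. COL1A1 had 47.31 and 37.68 CPM in t-hESC BIX, against 32.72 and 33.64 CPM in t-hESC DMSO (0.36 ± 0.08, adjusted p = 1.77e-04), and without BIX replicate 1 it was no longer called (adjusted p = 0.146). COL11A1, which joins type II fibrils in cartilage, had 26.21 and 22.65 CPM, against 18.56 and 17.97 CPM (0.43 ± 0.08). COL5A3 was the fibrillar gene that fell, at 3.087 and 3.592 CPM in t-hESC BIX, against 4.447 and 5.034 CPM in t-hESC DMSO (-0.52 ± 0.19, adjusted p = 0.0433). COL2A1 had 83.16 and 77.27 CPM in t-hESC BIX, with 76.81 and 79.61 CPM in t-hESC DMSO, and was not called (0.04 ± 0.05, adjusted p = 0.663).

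The rises of type IV genes with BIX were small. COL4A5 had 120.3 and 119.3 CPM in t-hESC BIX, against 96.19 and 96.08 CPM in t-hESC DMSO (log2 fold change 0.32 ± 0.04, adjusted p = 5.50e-08). COL4A2 had 194.4 and 179.3 CPM, against 155 and 161.6 CPM (0.24 ± 0.04), COL4A1 had 129.7 and 132.3 CPM, against 113.6 and 114.4 CPM (0.20 ± 0.04), and COL4A6 had 101.4 and 100.2 CPM, against 91.13 and 92.74 CPM (0.13 ± 0.05). COL4A4 had 1.071 and 1.1 CPM in t-hESC BIX, against 0.659 and 0.565 CPM in t-hESC DMSO, and was not called (0.83 ± 0.43, adjusted p = 0.171). COL18A1 was not called either, with 375.7 and 344.1 CPM in t-hESC BIX, against 382.8 and 376.7 CPM in t-hESC DMSO. Of the other types, COL23A1 had 20.54 and 18.69 CPM in t-hESC BIX, against 13.89 and 13.08 CPM in t-hESC DMSO (0.55 ± 0.10, adjusted p = 5.67e-06), and COL22A1 had 6.3 and 6.012 CPM, against 4.227 and 4.282 CPM (0.53 ± 0.17, adjusted p = 0.0128). COL7A1, COL6A1, COL6A2 and COL14A1 rose by 0.21 to 0.34, and COL26A1 fell by 0.14 on the log2 scale.

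**Figure D2:**
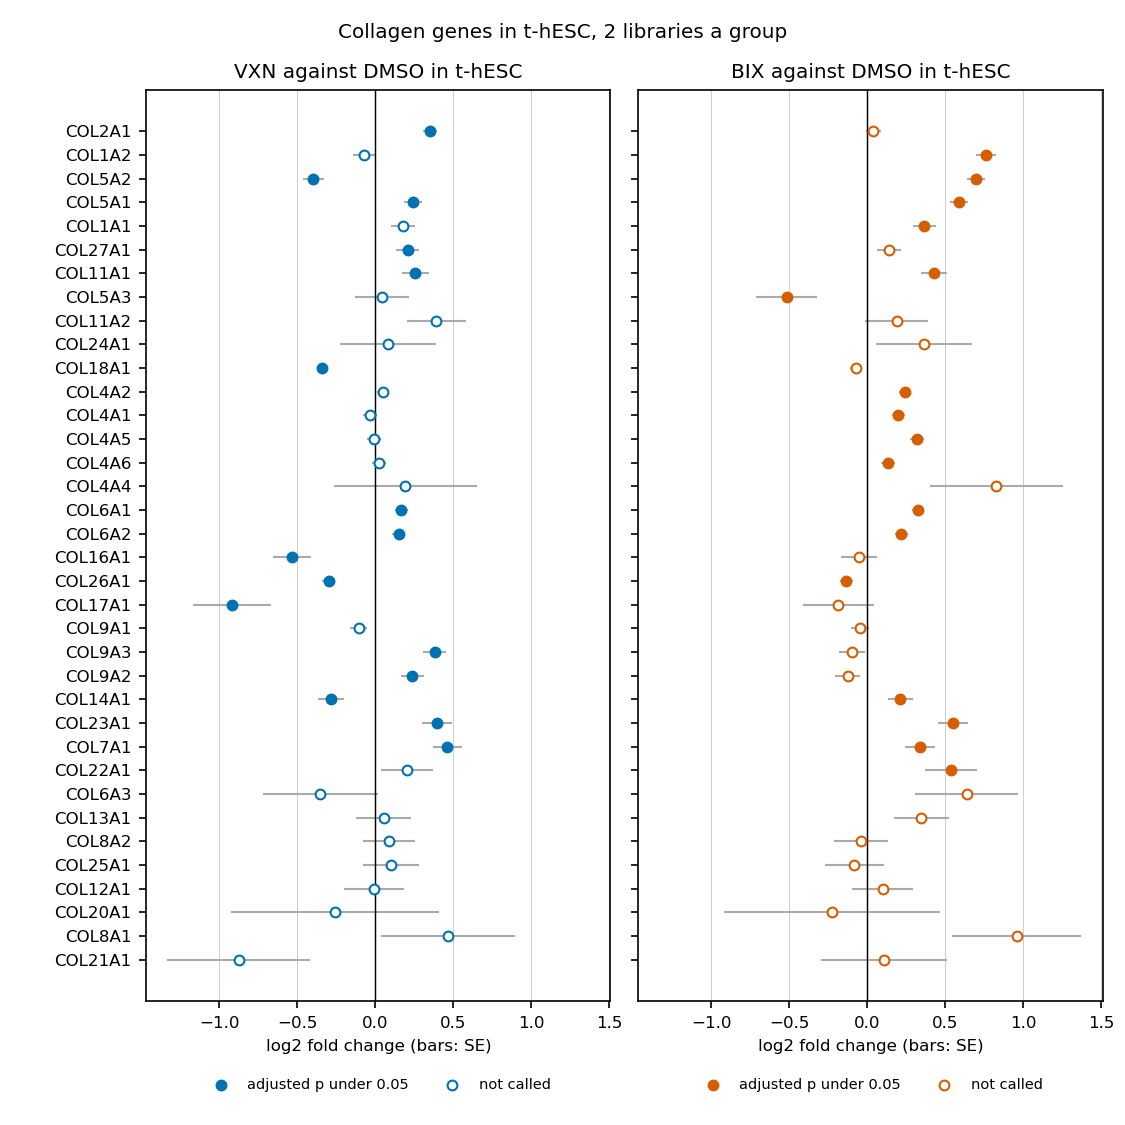
Log2 fold change of the 36 tested collagen genes in t-hESC, for VXN against DMSO on the left and BIX against DMSO on the right, with bars for the SE and filled points for an adjusted p under 0.05 (2 libraries a group). BIX points lie mostly to the right of 0, led by COL1A2 at 0.76 among called genes, and VXN points lie on both sides, down to -0.92 for COL17A1.

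The BIX effect moved with gene length. Over all tested genes with a length, the median log2 fold change was -0.03 for 5386 genes under 10 kb, 0.10 for 2456 genes of 100 to 300 kb and 0.17 for 713 genes over 300 kb. The 36 collagen genes had a median genomic length of 139 kb, against 24.6 kb over 18628 tested genes. With each gene's expression set relative to the length trend of its library, 11 members rose and 3 fell. The rises of COL4A1 (adjusted p = 0.0647), COL22A1 (0.0874), COL14A1 (0.527) and COL4A6 (0.989) were lost, and COL18A1 was then lower by a log2 fold change of -0.14 ± 0.03 (adjusted p = 9.87e-04). COL1A2, COL5A2, COL5A1 and COL1A1 were called with length offsets as well, at 0.78, 0.54, 0.48 and 0.41.

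**Figure D3:**
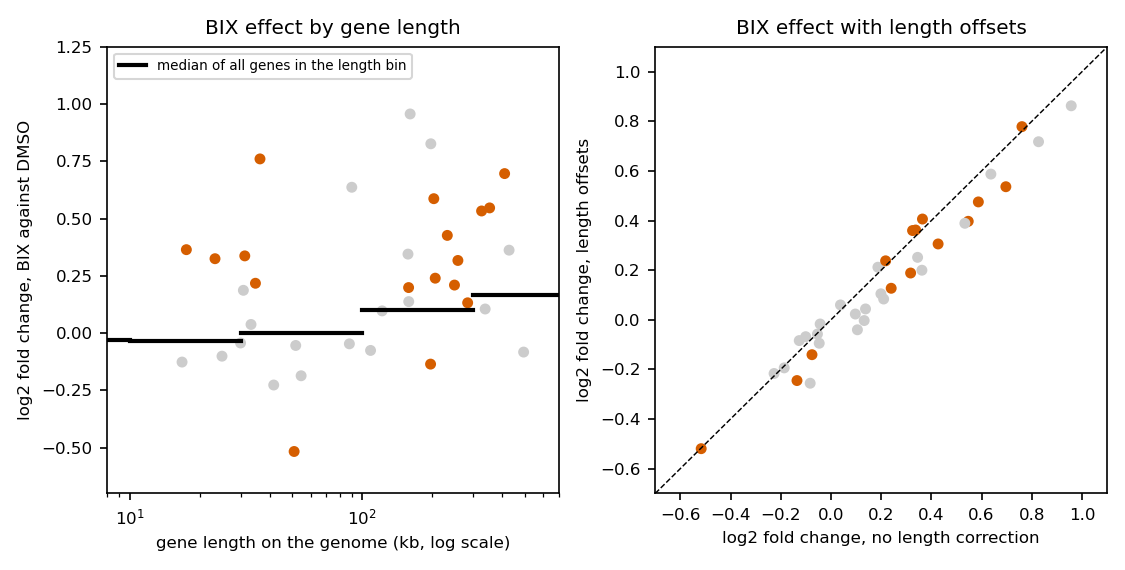
Left, BIX against DMSO log2 fold change of the 36 tested collagen genes by genomic length in kb (log axis), with lines at the median of all genes per length bin, which runs up to 0.17 for genes over 300 kb. Right, the same changes with length offsets against those without, with called genes in orange and others in grey in both panels; points of genes called with offsets reach 0.78.

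VXN and BIX were given at different doses, 10 and 1 µM, so compound and dose cannot be told apart, and both are compared with the same DMSO libraries. Between them, 12 members were lower and 4 higher in VXN and 20 were not called, where 22.7% of all genes tested were called, 11.6% higher and 11.2% lower. COL6A3 was among those not called, with 3.943 and 1.917 CPM with VXN and 6.93 and 4.472 CPM with BIX. Other fits called it lower with VXN. They were no count filter (log2 fold change -0.98, adjusted p = 1.09e-05), a minimum count of 50 (-0.99, 0.0492) and only the groups compared (-0.99, 0.012). COL5A2 had 29.93 and 33.26 CPM with VXN, against 67.98 and 67.08 CPM with BIX, a log2 fold change of -1.09 ± 0.06 (adjusted p = 8.90e-23). COL1A2 had 38.53 and 39.69 CPM with VXN, against 71.69 and 67.59 CPM with BIX (-0.83 ± 0.07, adjusted p = 1.70e-15). COL14A1 had 17.8 and 18.27 CPM with VXN, against 26.27 and 24.49 CPM with BIX (-0.50 ± 0.09). Each of these 3 genes had all VXN libraries below all BIX libraries. The 4 genes higher with VXN were COL2A1 (0.31 ± 0.05), COL9A3 (0.48 ± 0.08), COL9A2 (0.36 ± 0.08) and COL5A3 (0.56 ± 0.20). With DESeq2 COL9A2 was no longer called (adjusted p = 0.0631), nor was COL17A1 (0.0556). COL17A1 (-0.73 ± 0.27, adjusted p = 0.043) and COL5A3 (adjusted p = 0.03) lost their calls without VXN replicate 1 or without either BIX library (adjusted p from 0.0519 to 0.377). COL16A1 (-0.48 ± 0.13) lost its call without BIX replicate 1 or VXN replicate 2 (adjusted p = 0.21 and 0.0912), and COL6A1 and COL26A1 without BIX replicate 1 (0.14 and 0.195), COL6A1 also without VXN replicate 1 (0.0696). The difference between the compounds also moved with gene length, with 25.8% of 2456 genes of 100 to 300 kb lower with VXN, against 4.21% of 5386 genes under 10 kb. COL4A1, COL4A2 and COL4A5 were lower with VXN by log2 fold changes of -0.23, -0.19 and -0.33. COL4A6, COL4A4 and COL1A1 were not called without length offsets. With length offsets the calls of COL4A2 (-0.10, adjusted p = 0.066), COL26A1 (-0.07, 0.274) and COL17A1 (-0.71, 0.0543) were lost. COL1A1 was then called lower with VXN (-0.22, adjusted p = 0.0224), as it also was with other scalings (0.0441 and 0.0325). COL4A6 was called lower with upper-quartile scaling (-0.13, adjusted p = 0.03).

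The VXN effect differed between the lines at 19 of the 36 members, 17 of them higher in HT29 minus t-hESC, where 43.2% of all genes tested were called, 22.9% higher and 20.3% lower. COL16A1 and COL17A1 rose in HT29 and fell in t-hESC, with differences of 3.67 ± 0.14 and 1.31 ± 0.25 on the log2 scale. COL5A2 and COL18A1 did likewise, with differences of 2.65 ± 0.40 and 1.11 ± 0.06. COL27A1 went the other way, falling in HT29 and rising in t-hESC (-0.81 ± 0.10, adjusted p = 6.28e-10). COL9A3 rose in t-hESC and was not called in HT29, and the difference of -0.36 ± 0.09 was called (adjusted p = 8.93e-04). COL7A1, COL5A1, COL6A1 and COL6A2 rose in both lines and by more in HT29, with differences of 2.82, 3.73, 2.06 and 4.75. The calls of COL11A2 (1.254, adjusted p = 0.00133) and COL14A1 were lost with DESeq2 (adjusted p = 0.0554 and 0.0527). The COL11A2 call was also lost without HT29 VXN replicate 1, at a difference of 0.91, and that of COL14A1 without any 1 HT29 library.

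COL4A1 and COL4A2, which share the promoter region shown above, encode chains that assemble into one type IV molecule. COL4A1 lies at chr13:110148963-110307157 and COL4A2 at chr13:110307284-110513209. The ratio of COL4A2 to COL4A1 counts was 3.88 and 4.09 in HT29 VXN and 25.2 and 33.5 in HT29 DMSO, with 1.51 and 1.44 in t-hESC VXN, 1.5 and 1.36 in t-hESC BIX, with 1.36 and 1.41 in t-hESC DMSO. The ratio was thus lower in both HT29 VXN libraries than in both HT29 DMSO libraries, and ran from 1.36 to 1.51 over the t-hESC libraries. In HT29 DMSO it rests on 5 and 4 counts of COL4A1. COL4A2-AS1, a gene that overlaps COL4A2, had 22 and 24 counts in HT29 VXN and 18 and 17 counts in HT29 DMSO, where COL4A2 had 202 and 176 and 126 and 134 counts. The COL4A5 and COL4A6 starts lie 380 bases apart, and their count ratio was 1.03 and 1.02 in t-hESC VXN, 1.19 and 1.19 in t-hESC BIX, with 1.06 and 1.04 in t-hESC DMSO.

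**Figure D4:**
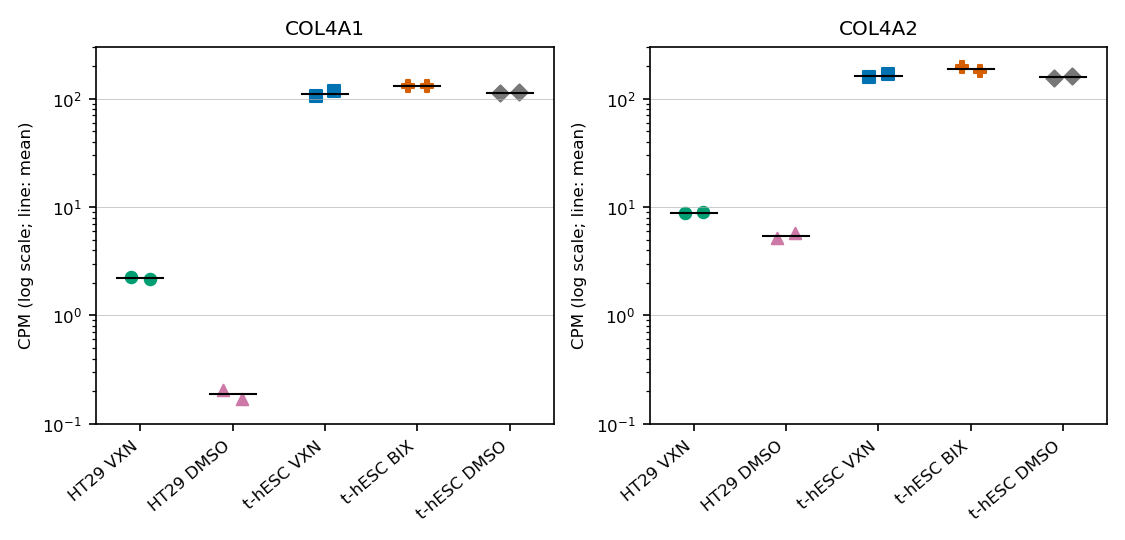
COL4A1 on the left and COL4A2 on the right, in CPM on a log axis, 1 point per library with a line at the mean of the 2 libraries of each group. In HT29 COL4A1 differs more between VXN (2.272 and 2.178 CPM) and DMSO (0.206 and 0.171 CPM) than COL4A2 does, and in t-hESC both genes are near or above 100 CPM in every group.

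A further set of tested members was called for neither VXN nor BIX against DMSO. It comprised COL9A1 of cartilage type IX collagen, COL4A4, the type VIII genes COL8A1 and COL8A2, the FACIT gene COL21A1, the fibrillar gene COL24A1 and the membrane-spanning COL13A1 and COL25A1. COL9A1 had 57.41 and 52.49 CPM in t-hESC VXN, 59.47 and 54.84 CPM in t-hESC BIX, against 60.67 and 57.78 CPM in t-hESC DMSO. COL8A1 had 1.075 and 0.62 CPM in t-hESC VXN, 1.197 and 1.173 CPM in t-hESC BIX, against 0.494 and 0.706 CPM in t-hESC DMSO, and its BIX adjusted p was 0.0883. Both COL8A1 libraries with BIX lay above both with DMSO, at a level where few counts were available.

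Genes that make, export, cross-link, bind and cleave collagen were listed separately. In HT29, VXN against DMSO called 60% of all genes tested, 33% higher and 26.9% lower, and the counts below stand beside that share. Of 13 tested enzymes of prolyl and lysyl modification 7 rose and 4 fell, among them P4HA2, a prolyl hydroxylase subunit (114.3 CPM in VXN, against 30.05 CPM in DMSO; log2 fold change 1.93 ± 0.05), P4HB, its partner subunit (0.99 ± 0.03), and P3H2, a prolyl 3-hydroxylase, which fell (-2.00 ± 0.14). Of 10 chaperones and export factors 7 rose and 1 fell, including SEC24D, a coat subunit (141.1 CPM, against 34.52 CPM; 2.03 ± 0.05), CTAGE5 and MIA3, which load procollagen into vesicles (1.90 ± 0.04 and 0.98 ± 0.04). Of 9 processing enzymes 3 rose and none fell, which is below the 60% called over all genes. Of 7 cross-linking enzymes 4 rose and 2 fell, with LOXL1 lower (-1.53 ± 0.18) and TGM2 higher (0.48 ± 0.04). Of 9 tested fibril partners 6 rose, including SPARC, a collagen-binding protein (1.205 CPM, against 0.0625 CPM; 4.14 ± 0.53). Of 8 receptors 3 rose and 2 fell, and the collagen-binding integrin subunits ITGA1 (16.67 CPM, against 62.7 CPM; -1.91 ± 0.07) and ITGA2 (-1.05 ± 0.06) were those that fell. Of 9 genes of degradation 6 rose and 1 fell, and MMP13, a collagenase, had a mean of 8.005 CPM in VXN, against 0.127 CPM in DMSO (5.92 ± 0.30).

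In t-hESC, where BIX called 10.9% of all genes tested higher and 12.2% lower, 6 of 13 modification enzymes rose and none fell, with P4HA1 (log2 fold change 0.47 ± 0.06) and the lysyl hydroxylase PLOD2 (0.45 ± 0.07) among them. It raised 6 of 9 fibril partners, and FN1, fibronectin, had a mean of 135.6 CPM in BIX, against 63.92 CPM in DMSO (1.08 ± 0.05). It raised PXDN, the enzyme of type IV collagen cross-links, to a mean of 235.2 CPM, against 183.2 CPM (0.36 ± 0.04), and LOXL2, of 7 cross-linking enzymes. Of the receptors 3 of 8 rose, including DDR2 (1.20 ± 0.27), and of degradation 1 of 9, MMP2 (0.36 ± 0.04). Chaperones and export factors went both ways (2 higher and 2 lower of 10), as did processing enzymes (2 higher and 1 lower of 9). VXN in t-hESC, where 14.5% of all genes tested were higher and 14.6% lower, moved modification enzymes 4 up and 2 down, chaperones and export factors 4 up and 3 down, processing enzymes 1 up and 1 down, cross-linking enzymes 0 up and 2 down, fibril partners 2 up and 1 down, receptors 1 up and 1 down, and degradation 2 up and 2 down. The processing list (2 called of 9), the receptor list (2 of 8) and the cross-linking list (2 of 7) were below the 29% called over all genes. With BIX the degradation list (1 of 9) was below the 23.1% called over all genes. Genes moved by VXN included P4HA1 (0.32 ± 0.06) and SEC24D (0.35 ± 0.05), which rose. PPIB (-0.26 ± 0.03), DDR1 (-0.20 ± 0.03), BMP1 (-0.47 ± 0.11) and PXDN (-0.13 ± 0.04) fell with VXN.

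Markers of other cell types also moved in t-hESC. THY1 and KDR, which pluripotent cells are known to express, rose with both compounds. Their means were 856.0 and 149.2 CPM with VXN and 692.1 and 150.4 CPM with BIX, against 586.8 and 95.03 CPM in DMSO. KDR was 1 of 6 endothelial markers, of which 1 rose and 1 fell with VXN and 2 rose with BIX. TEK, another of them, had means of 0.435 CPM with VXN and 1.24 CPM with DMSO. Of 6 tested fibroblast and mesenchyme markers 2 rose and 2 fell with VXN, and 1 rose with BIX. Over all genes tested 14.5% were higher and 14.6% lower with VXN, and 10.9% and 12.2% with BIX. Fibroblast and mesenchyme markers summed to 881.2 to 883.6 CPM in t-hESC VXN, 706.1 to 733.4 CPM in t-hESC BIX and 614.2 to 615.8 CPM in t-hESC DMSO, and FAP was at 0 in all 6 libraries. These sums follow THY1, and with VXN the markers POSTN (0.851 CPM, against 1.78 CPM in DMSO) and PDGFRB (15.49 CPM, against 18.48 CPM) fell. TWIST2 had means of 8.986 CPM with VXN and 6.686 CPM with DMSO. Primitive endoderm markers summed to 369.3 to 370.1 CPM with VXN, 397.9 to 402.4 CPM with BIX and 368.1 to 375.7 CPM with DMSO. These sums were those of SPARC (means of 238.9, 246 and 261.3 CPM with VXN, BIX and DMSO) and LAMA1 (130.7, 154.2 and 110.5 CPM). SOX17 and GATA4 were at 0, and no group mean of GATA6 or FOXA2 was above 0.0581 CPM in t-hESC. The part of such cells in the collagen changes was not tested.

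The authors' deposited tables hold their own tests of 4 of these comparisons. For VXN in HT29 the authors' deposited table called 14 collagens higher and 1 lower, and 13 of the 14 and the 1 were called here in the same direction, COL3A1 being untested here. COL18A1, COL4A2, COL17A1 and COL14A1, which were called higher here, were not called in the authors' deposited table (adjusted p = 0.157, 0.325, 0.0865 and 0.0875). In the authors' deposited table for VXN in t-hESC, 1 member was higher (COL2A1) and 2 were lower (COL16A1 and COL17A1), all in the direction found here. The other members called here, such as COL18A1 (adjusted p = 0.722) and COL5A2 (0.803), were not called in the authors' deposited table. Their adjusted p there ran from 0.0512 for COL26A1 to 0.9 for COL6A2. In the authors' deposited table for BIX, 0 members were called, 28 were not called and 16 had no adjusted p. COL1A2 had a log2 fold change of 0.03 with an SE of 0.109 and an adjusted p of 0.627 in the authors' deposited table. The source of the gap from the 0.76 found here was not identified. The authors' deposited table also gave COL19A1 an SE of 0.107, although its only counts were 2 in t-hESC DMSO replicate 1. The deposited fold changes and those found here may therefore not be the same measure. For HT29 against t-hESC under VXN the authors' deposited table called 4 members higher and 32 lower, of which the 4 and 31 were called here, COL15A1 being untested here.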

How the data were processed

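RNA was sequenced from 10 libraries with a kit that does not mark strand. The authors deposited whole-number counts per gene. Of tools, DESeq2 1.34.0, STAR, FastQC 0.11.9 and fastp 0.20.1 appear in the submitters' processing notes, as do the genome builds hg38 and GRCh38, with no role for any of them. The counting program and its annotation were not given in the sources used here. The authors' deposited comparison tables also hold a signal (mean normalised count), log2 fold changes with their SE and p-values; these served only for side-by-side statements. A further 4 columns of the count table belong to no sample here and were not used. Rows of 1181 repeat families, 3.52 to 5.64% of counts per library, stayed out of library sizes and tests.

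Genes were filtered with filterByExpr (minimum count 10) and tested with edgeR 4.0.16 in R 4.3.3 (TMM factors, quasi-likelihood F test, all 10 libraries in 1 fit with a term per group, 5 residual degrees of freedom). The spread of each gene was drawn toward that of all genes tested, with a median of 56.7 prior degrees of freedom. The common biological coefficient of variation was 0.0207. P-values were Benjamini-Hochberg adjusted over 22495 genes. Ratios of small counts have exact 95% intervals that cover counting error only. The procedure was tested on simulated counts. Alternatives were DESeq2 1.42.0, other scalings and filters, gene length offsets (lowess span 0.5, lengths for 82.8% of tested genes), the replicate number as a block, only the groups compared, and each library left out. Same-numbered libraries did not deviate together (correlations from -0.0616 to 0.0763 over 10963 genes). Values in every library are given for the type I to IV genes, up to 8 called members per comparison within a line by size of change among those averaging at least 1 CPM, and the 5 highest and 5 lowest between lines; others are named with fewer values. The members and lists were chosen with earlier results of these data known.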

Additional observations from a re-analysis of the deposited data

Results flagged for a closer look

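The effect of VXN differed between HT29 and t-hESC at 19 collagen genes, by edgeR's test of the difference itself (HT29 minus t-hESC, log2, adjusted p under 0.05, where 43.2% of all genes tested were called). Among fibrillar genes the differences were 1.254 for COL11A2, 0.88 for COL1A1, 3.74 for COL1A2, -0.81 for COL27A1, 3.73 for COL5A1 and 2.65 for COL5A2. Among basement membrane genes they were 1.11 for COL18A1, 3.55 for COL4A1 and 0.66 for COL4A2. Among FACIT collagens they were 3.74 for COL12A1, 4.24 for COL14A1, 3.67 for COL16A1, 3.30 for COL20A1 and -0.36 for COL9A3. Type VI genes differed by 2.06 for COL6A1, 4.75 for COL6A2 and 4.64 for COL6A3, and COL7A1 and COL17A1 by 2.82 and 1.31. The values of COL14A1, COL5A1, COL6A2 and COL12A1 rest on 3 or fewer counts in HT29 DMSO, so their sizes are poorly fixed. With DESeq2 the differences of COL11A2 and COL14A1 were not called (adjusted p = 0.0554 and 0.0527).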

How the results depend on the processing

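Of the counts of called collagen genes, those in t-hESC moved most. BIX against DMSO gave 17 calls, 11 with DESeq2 and 11 to 18 with 1 library left out. VXN against DMSO in t-hESC gave 16 calls, 9 with DESeq2 and 12 to 17 with 1 library left out. With 1 library left out, VXN in HT29 gave 18 to 21 calls against 18, VXN against BIX 12 to 18 against 16, the difference of VXN effects 19 to 20 against 19, and HT29 against t-hESC 36 to 37 under DMSO and 34 to 37 under VXN, against 35 each. An arm left with 1 library is assumed to vary like the other groups. With the replicate number as a block, which the labels do not tie to any shared culture, BIX gave 15 calls, the lines under VXN 36, and the other counts stayed as they were. COL4A6 under BIX turned to -0.0030 with gene length offsets and to -0.0020 with length offsets and the replicate block; the length trend itself is what the offsets remove. Members above t-hESC carry-over numbered 23 in HT29 VXN and 18 in HT29 DMSO at the highest marker share, 38 and 33 at the median share, and 29 in HT29 DMSO without TDGF1 and DPPA2, a choice made after seeing the data. Of the values of the single genes named by the rule for named genes, which are a subset of the members in each comparison, 1738 kept direction and side of the threshold, 46 were no longer called, 17 became called and 2 reversed. Low collagen counts limit the HT29 DMSO values most, where 8 of the 44 members had 0 counts. Depth was not low in these libraries, at 24475240 and 23423001 gene counts, and 3 counts correspond to 0.123 and 0.128 CPM.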
